A study of Mus musculus with 63 samples.

Results

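Small intestinal organoids were given 4-hydroxytamoxifen (4-OHT) to delete *Cdk8*, and their response was compared 7 and 10 days later. The late shift is the difference between both responses, computed as the log2 fold change of 4-OHT over EtOH at day 10 minus the same fold change at day 7. It rests on 12 of the 63 samples of the series, chosen by genotype, treatment and day, in 4 groups of 3 RNA-Seq libraries. All 4 groups are C57BL/6 organoids carrying VillinCreERT2; *Cdk8* fl/fl; *Cdk19* ko/ko, and were grown from 1 line in Matrigel with Noggin, R-spondin and EGF. *Cdk19* is therefore inactivated in every group, EtOH controls included, and 4-OHT adds the loss of *Cdk8*. The groups received 100 nM 4-OHT or EtOH as vehicle for 24 hours, and were collected at day 7 or day 10. The Cre recombinase is driven by Villin, a promoter of intestinal epithelial cells, which organoids consist of. The question was which genes answered the deletion of *Cdk8*, in cells without *Cdk19*, differently at the later day.

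CDK8 and CDK19 are the paralogous kinases of the Mediator kinase module, which binds Mediator and tunes how enhancers and transcription factors reach RNA polymerase II. In the crypt, Lgr5-positive stem cells divide to give absorptive enterocytes and secretory cells, the latter through ATOH1 and low Notch signaling. Paneth cells, one of the secretory types, supply stem cells with Wnt ligand and release antimicrobial proteins.

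Each library held between 19110500 and 20771513 counts on genes. Levels are counts relative to the TMM-scaled library size (CPM), given in the order of replicates 1, 2 and 3. Differences are log2 values ± SE from edgeR, whose quasi-likelihood test gives the adjusted p-values. One library stood apart: EtOH day 7 replicate 2 held 531 reads of the fibroblast collagen *Col1a1*, against 10 to 14 in the other day 7 libraries and 0 to 1 at day 10, with 126 of *Acta2*, 100 of *Col1a2*, 83 of *Vim* and 15 of *Col3a1*. Its 11 mesenchyme and endothelium markers summed to 47.5 CPM, and those of the other 11 libraries to between 3.66 and 9.32 CPM. Markers of immune cells summed to 1.03 to 5.46 CPM over the 12 libraries, with 4 of 9 at 0 in each group. Reads from mitochondrially encoded genes made up 3.09% to 3.58% of EtOH and 2.82% to 3.70% of 4-OHT libraries at day 7, and 1.496% to 1.601% and 1.63% to 1.96% at day 10. The labels name no sequencing batch, so anything besides time that differed between the days cannot be told apart from it.

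Whole-gene counts of *Cdk8* do not check the deletion here. They were 49.6, 47.7 and 50.2 CPM in EtOH and 45.6, 42.8 and 47.2 CPM in 4-OHT libraries at day 7, and 57.1, 53.9 and 56.2 CPM and 57.5, 53.3 and 56.2 CPM at day 10. At neither day did the response pass the test, with -0.12 ± 0.07 at day 7 and 0.00 ± 0.07 at day 10. Transcripts of a floxed gene can still be counted over the exons that remain. *Cdk19* was likewise counted, at 35.3 to 50.3 CPM in the 12 libraries.

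Of 15447 genes tested, 990 (6.41%) differed between both responses at an adjusted p under 0.05 and by more than 1.5-fold. The response was higher at day 10 for 461 genes (2.98%) and lower for 529 (3.42%). The response itself was called for 2820 genes (18.3%) at day 7, with 9% higher and 9.25% lower, and for 2437 (15.8%) at day 10, with 8.86% higher and 6.92% lower. At day 3 it was called for 1910 genes (12.4%, of which 6.42% higher and 5.95% lower), and at day 5 for 2040 (13.2%, of which 8.58% higher and 4.62% lower). Between the days, 3601 genes (23.3%) changed in EtOH libraries and 5622 (36.4%) in 4-OHT libraries. Without 4-OHT day 7 replicate 3 the late shift was called higher for 699 genes and lower for 516, a share of 57.5% higher. The median late shift of all genes was 0.04, so shifts are read against that value. Counts of called list members below are likewise read against the shares of all genes given here.

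In most called genes the estimated response had opposite signs at day 7 and day 10, counted whether or not it was called at either day. Selection for a large difference between both responses itself favors opposite signs, and the share over all genes was not counted. Among the 461 genes with a higher response, 271 went from below to above 0, 106 had a negative response that shrank and 84 a positive one that grew. Among the 529 with a lower response, 349 turned from positive to negative, 94 had a positive response that shrank and 86 a negative one that grew. Genes called at both days in opposite directions numbered 34, of which 21 were higher at day 7 and lower at day 10, and 13 were the reverse. For 169 genes of the first set the decrease seen at day 7 was no longer called at day 10, while 137 were called higher at day 10 alone. In the second set, 172 genes were called higher at day 7 alone and 172 were called lower at day 10 alone. Called at neither day were 115 genes of the first set and 124 of the second.

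**Figure D1:**
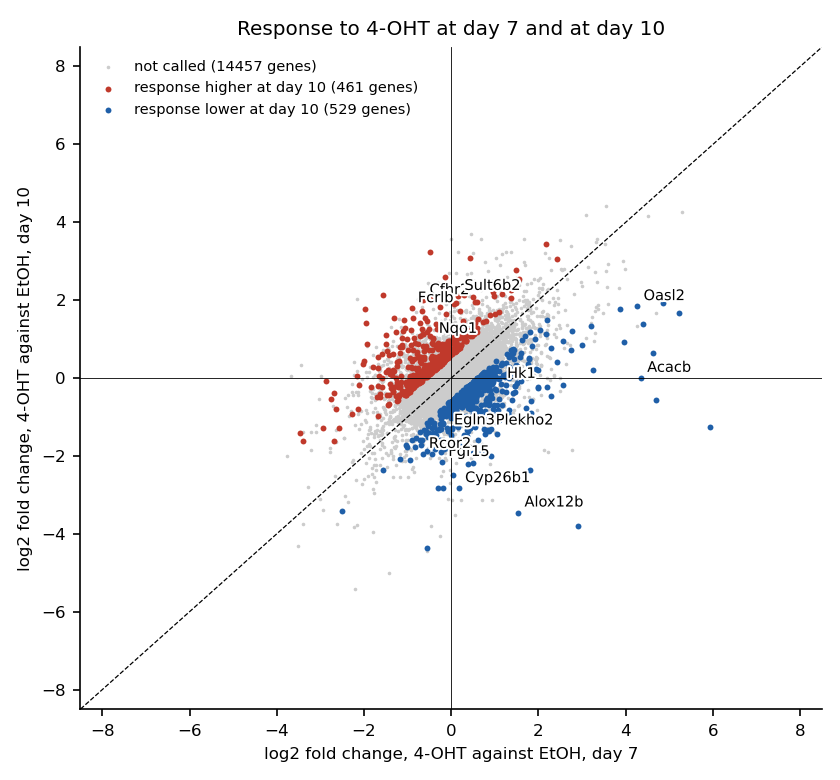
Response to 4-OHT at day 7 (horizontal axis) and at day 10 (vertical axis) as log2 fold changes against EtOH, 1 point per gene tested, with the 461 genes of higher late response in red, the 529 of lower late response in blue and the rest in gray; the dashed line marks equal responses. Of the red points, 271 lie in the upper left part, and of the blue points, 349 lie in the lower right, where the response changes sign.

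The 4-OHT libraries moved more than the EtOH libraries in 353 of 461 genes (76.6%) with a higher response and in 460 of 529 (87%) with a lower one, against 64.6% of all genes. Median changes from day 7 to day 10 were 0.96 in 4-OHT and 0.03 in EtOH libraries for the first set, and -1.08 and -0.13 for the second. Median responses of the first set were -0.12 at day 3, -0.10 at day 5, -0.51 at day 7 and 0.43 at day 10, and those of the second were 0.21, -0.01, 0.49 and -0.49.

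**Figure D2:**
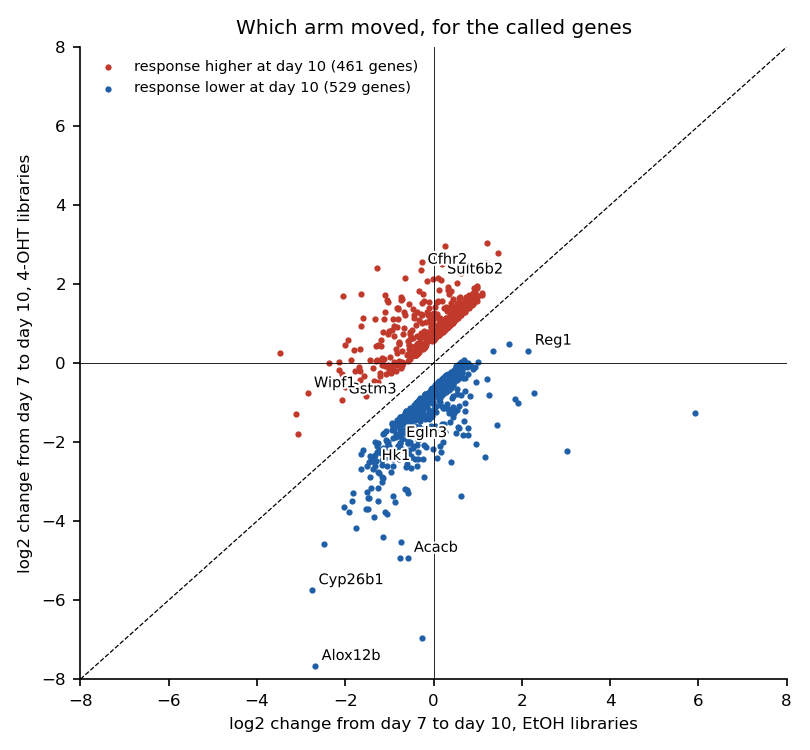
Change from day 7 to day 10 in EtOH libraries (horizontal axis) and in 4-OHT libraries (vertical axis), log2, for the 461 genes with a higher (red) and the 529 with a lower (blue) late response; the dashed line marks equal change in both arms. The red points stretch upward and the blue points downward along the 4-OHT axis, while genes such as Reg1 and Wipf1 moved in the EtOH arm. Gstm3 fell in both arms, more so with EtOH.

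The late shift followed gene length. When genes were split into 10 bins by exon length, its median went from 0.20 in bin 1 (54 to 872 bp) to -0.17 in bin 10 (9081 bp and more). In bin 1, 4.08% of genes were called higher and 0.648% lower, while in bin 10 it was 0.712% and 5.89%. Median exon length was 2389 bp among genes called higher, 5096 bp among genes called lower and 3633 bp among all. With each library scaled along a curve on length, an alternative chosen after seeing the data, 845 genes were called, 302 higher and 543 lower, of which 714 were called in the same direction without it. The share called higher was then 35.7%, against 46.6%. Genes under 1000 bp held 4.66% to 5.51% of the counts in EtOH and 4.58% to 4.90% in 4-OHT libraries at day 7, and 5.15% to 5.66% and 5.13% to 5.90% at day 10. The cause of the trend was not tested, and calls that did not hold under this scaling are named below.

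**Figure D3:**
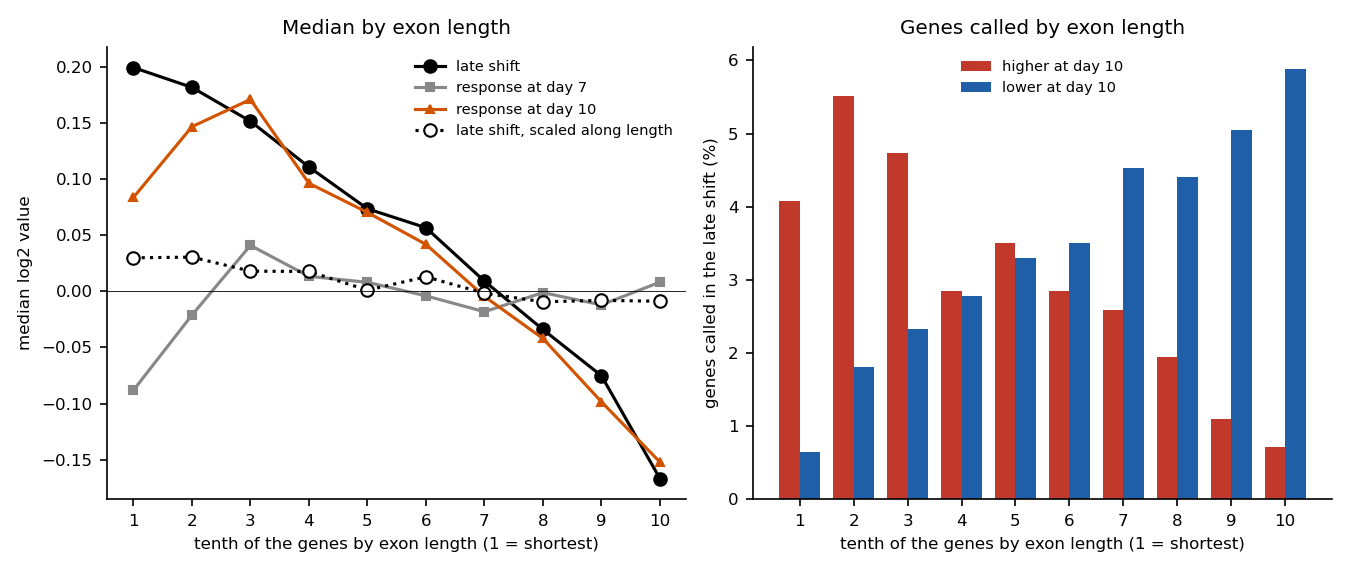
Left, median late shift, response at day 7, response at day 10 and late shift after scaling along length (log2, vertical axis) in 10 bins of genes by exon length (horizontal axis, 1 shortest, 10 longest); right, the share of each bin called higher (red) or lower (blue) in the late shift, in percent. The median late shift runs from 0.20 to -0.17, and the response at day 7 lies between -0.09 and 0.04.

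Promoter sequences are shown for genes of 3 programs described below, as examples of the motifs that hypoxia, oxidative stress and interferon are known to act through. Hypoxia-inducible factors (HIFs) bind a hypoxia response element with the core ACGTG, NRF2 binds an antioxidant response element, searched as TGACNNNGC, and interferon-activated factors bind an interferon-stimulated response element, searched as GAAA repeated after a gap of 2 bases. Both strands were searched, from 250 bases before to 50 bases after each RefSeq start (GRCm38.p6). Stretches are written 5′ to 3′ on the strand of the gene, capitals mark the match, and the 6 capitals of *Pfkfb3* and *Bnip3* hold overlapping matches on both strands.
Hk2: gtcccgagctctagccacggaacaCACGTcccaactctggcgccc
Egln3: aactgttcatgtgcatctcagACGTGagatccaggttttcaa
Pfkfb3: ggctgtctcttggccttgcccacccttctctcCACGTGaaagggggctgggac
Bnip3: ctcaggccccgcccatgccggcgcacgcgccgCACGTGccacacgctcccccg
Gsta3: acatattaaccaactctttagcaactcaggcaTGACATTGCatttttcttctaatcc
Ugdh: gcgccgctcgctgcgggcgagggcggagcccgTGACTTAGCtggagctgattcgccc
Oas3: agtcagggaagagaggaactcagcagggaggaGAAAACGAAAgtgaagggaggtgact
Rsad2: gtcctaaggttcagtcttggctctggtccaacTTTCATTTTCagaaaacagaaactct

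The *Hk2* stretch spans chr6:82774660-82774704 (minus strand), that of *Egln3* chr12:54204083-54204124 (minus strand), that of *Pfkfb3* chr2:11502123-11502175 (minus strand) and that of *Bnip3* chr7:138909594-138909646 (minus strand). The match begins 226 bases before the start in *Hk2*, 229 in *Egln3*, 53 in *Pfkfb3* and 108 in *Bnip3*. The *Gsta3* stretch is chr1:21240432-21240488 (plus strand) with its match 121 bases before the start, and that of *Ugdh* is chr5:65435950-65436006 (minus strand), with 132 bases. *Oas3* is shown at chr5:120777709-120777766 (minus strand), 75 bases before its start, and *Rsad2* at chr12:26456547-26456604 (minus strand), 120 bases. The hypoxia core occurred in 19.6% of all 32851 windows and in 28.6% of the 10352 tested genes that have a window, and in 15 of the 19 members of the glycolysis and hypoxia list with a window. The antioxidant motif occurred in 17.0% of tested genes and in 7 of 13 NRF2 targets, and the interferon motif in 3.5% of tested genes and in 9 of 13 interferon-stimulated genes. Among list members called in the late shift that have a window, 6 of 8 held the hypoxia core. The antioxidant motif was in 2 of 4 (*Gsta3* and *Ugdh*) and the interferon motif in 1 of 3 (*Rsad2*). A match says only that these letters stand in the window.

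Among glycolysis and hypoxia genes, all calls were for a lower response at day 10. Of 20 genes tested, 8 were called lower and 0 higher, beside 3.42% of all genes called lower, and the median shift was -0.50. The 8 were *Hk1*, *Hk2*, *Pfkl*, *Pfkfb3*, *Pdk1*, *Bnip3*, *Vegfa* and *Egln3*, and the other 12 had shifts of -0.55 to 0.65. At day 7 the median response of the list was -0.06, with 2 genes called higher and 1 lower, while at day 10 it was -0.36 with 0 higher and 8 lower. The median change of the list from day 7 to day 10 was -0.39 in EtOH and -0.79 in 4-OHT libraries. At an unadjusted p under 0.05, 12 genes were lower and 1 higher. The share of all genes at that cutoff was not counted, so unadjusted counts here and below have no background beside them. At an adjusted p under 0.05 and any fold, 2590 of 15447 genes already passed.

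*Hk1*, a hexokinase, which phosphorylates glucose in the first step of glycolysis, (chr10:62268855-62379908, minus strand), had the smallest p of the list. EtOH libraries held 119.8, 128 and 116 CPM and 4-OHT libraries 241, 279 and 281 CPM at day 7, while day 10 libraries held 44.7, 46.8 and 54.6 CPM with EtOH and 43.3, 43.3 and 44.5 CPM with 4-OHT. All 4-OHT libraries were above all EtOH libraries at day 7, and at day 10 they lay just under them. The response went from 1.14 ± 0.07 to -0.16 ± 0.08, a shift of -1.29 ± 0.11 (adjusted p = 4.6e-09), after 1.19 at day 3 and 0.42 at day 5. Its partner *Hk2* was at 50.2, 59.9 and 59.9 CPM with EtOH and 34.1, 53.2 and 52.2 CPM with 4-OHT at day 7, and at 46.7, 45.4 and 51.5 CPM and 20.5, 18.1 and 18.8 CPM at day 10. Here the groups overlapped at day 7 and separated at day 10, with a shift of -1.04 ± 0.19 (adjusted p = 0.00064).

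*Egln3* encodes a prolyl hydroxylase that is itself induced by HIFs (chr12:54178981-54203860, minus strand). It was counted at 406, 372 and 392.3 CPM in EtOH and 333, 387 and 386 CPM in 4-OHT libraries at day 7, then at 193, 236 and 261 CPM and 88.5, 91.7 and 90.4 CPM. Both groups overlapped at day 7, and at day 10 every 4-OHT library lay under the lowest EtOH library. The shift was -1.27 ± 0.12 (adjusted p = 2.3e-07). *Pfkfb3*, which makes the strongest activator of phosphofructokinase, followed the same course: 76.5, 70.3 and 64.8 CPM with EtOH and 57.0, 65.9 and 63.9 CPM with 4-OHT at day 7, 27.1, 26.2 and 33.8 CPM and 13.2, 12.6 and 13.57 CPM at day 10, and a shift of -0.97 ± 0.12. The groups overlapped at day 7 and not at day 10. *Bnip3*, a mitophagy receptor, shifted by -0.97 ± 0.17 and *Vegfa*, the endothelial growth factor, by -0.67 ± 0.11. Neither lost its call in an alternative.

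*Pdk1*, which restrains pyruvate dehydrogenase, and *Pfkl*, a phosphofructokinase, shifted by -0.58 ± 0.11 and -0.59 ± 0.08, close to the fold threshold. Their calls did not hold under scaling along length (-0.52 and -0.55) or with limma-voom (-0.58 for both), a filter of at least 10 counts in every library, the 12 libraries alone or the replicate block. They were also lost without 1 of several libraries, *Pdk1* without any one of EtOH day 7 replicate 1, 4-OHT day 7 replicates 2 and 3, EtOH day 10 replicates 2 and 3 or 4-OHT day 10 replicate 1 (-0.55 to -0.49) and *Pfkl* without any one of EtOH day 7 replicates 1 and 3, 4-OHT day 7 replicates 2 and 3, EtOH day 10 replicate 3 or 4-OHT day 10 replicate 1 (-0.57 to -0.53). *Ak4* and *Vldlr*, outside the list, had p-values among the 6 smallest of the lower responses. *Ak4*, a mitochondrial adenylate kinase known as a HIF target, stood at 84.5, 79.3 and 75.6 CPM with EtOH and 82.8, 96.7 and 104 CPM with 4-OHT at day 7, and at 61.1, 67.1 and 80.1 CPM and 33.1, 35.9 and 37.6 CPM at day 10. The groups overlapped at day 7 only, and the shift was -1.21 ± 0.12 (adjusted p = 1.5e-07). *Vldlr*, a lipoprotein receptor, was at 42.7, 51.3 and 47.9 CPM with EtOH and 65.3, 76.6 and 69.6 CPM with 4-OHT, then at 23.8, 36.1 and 37.2 CPM and 14.1, 16.6 and 15.0 CPM. It was above the controls in all day 7 libraries and below them in all day 10 libraries, with a shift of -1.66 ± 0.16.

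**Figure D4:**
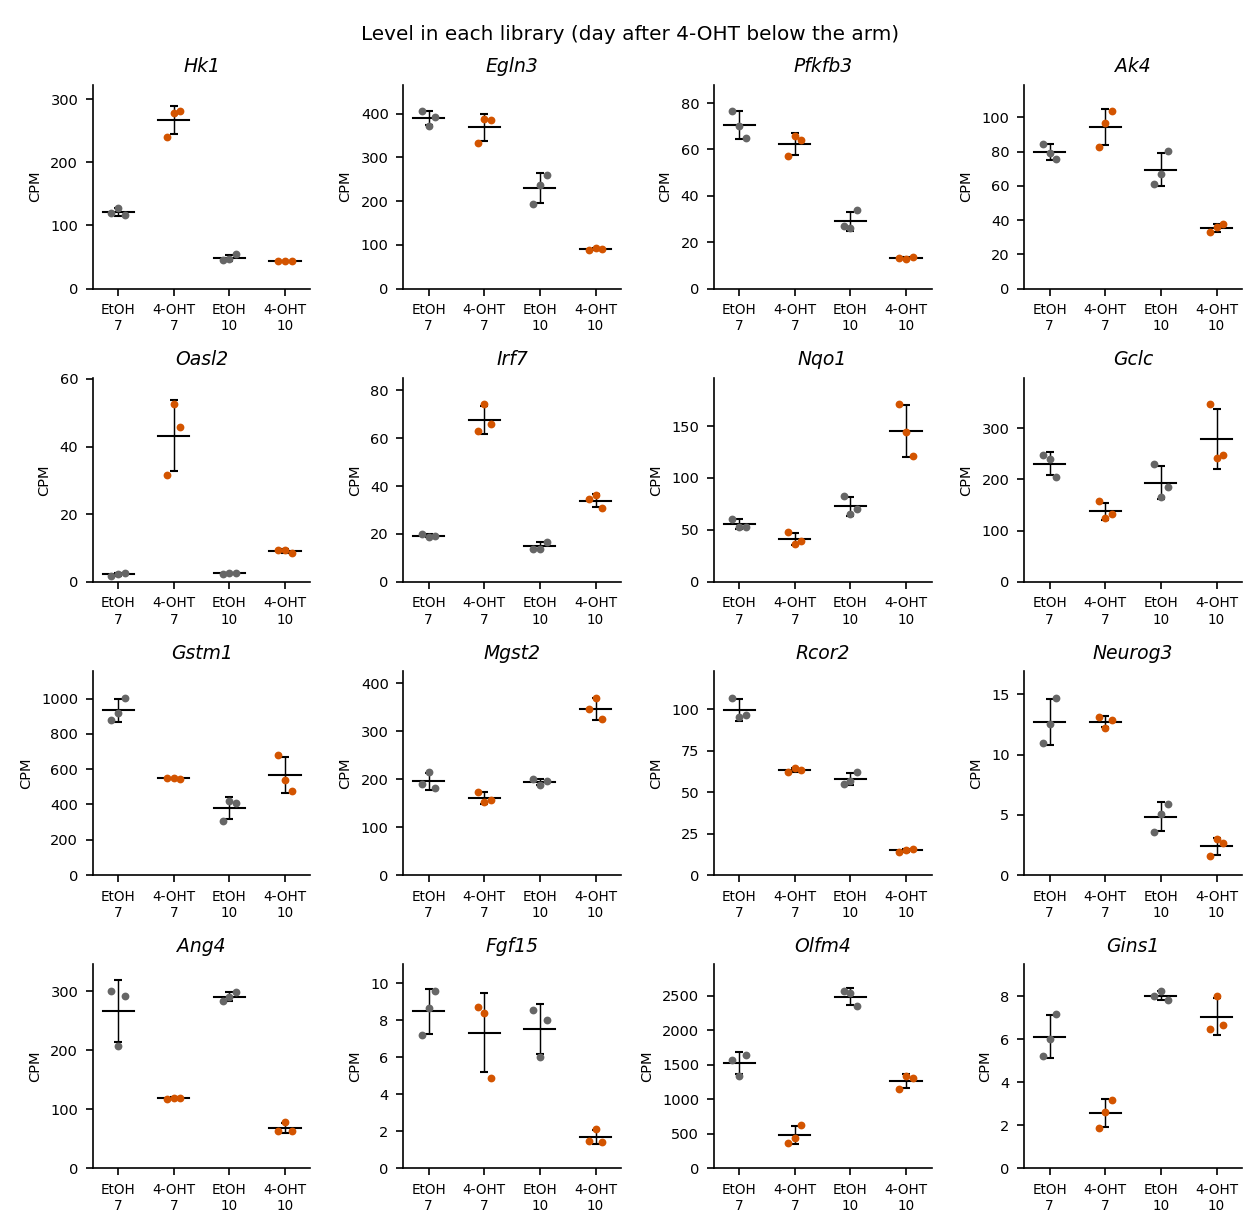
Level of 16 genes in each library in CPM (vertical axes from 0) for EtOH (gray) and 4-OHT (orange) at days 7 and 10; points are libraries, long bars the mean of 3 and short bars the SD. Hk1 is above EtOH at day 7 and level with it at day 10, while Nqo1, Gclc, Gstm1 and Mgst2 lie below EtOH at day 7 and above it at day 10.

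Among NRF2 targets and genes of drug and steroid metabolism, all calls but 1 were in the opposite direction. Of 16 NRF2 targets, 5 were called higher (*Nqo1*, *Gclc*, *Gstm1*, *Gsta3* and *Ugdh*) and 0 lower, beside 2.98% of all genes called higher, with a median shift of 0.37 and 14 values above 0. The median response of these 16 was -0.20 at day 7, with 4 genes called lower and 1 higher, and 0.37 at day 10, with 2 lower and 4 higher. Of 25 genes of drug and steroid metabolism, 9 were called higher and 1 lower, with a median shift of 0.28. At day 7, 5 of the 25 were called higher and 5 lower, and at day 10 it was 10 and 0. The median change of these 25 from day 7 to day 10 was -0.29 in EtOH and -0.20 in 4-OHT libraries. Under scaling along length the counts were 5 and 0 for NRF2 targets, and 8 and 1 for drug and steroid metabolism. At an unadjusted p under 0.05, 10 NRF2 targets were higher and 0 lower. Reads can be split between near-identical members of the Gst, Cyp2c, Cyp3a, Ugt, Oas and Reg families, so single members of them are uncertain.

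*Nqo1*, a quinone reductase (chr8:107388225-107403206, minus strand), was at 60.8, 53.1 and 53.1 CPM in EtOH and 47.8, 36.7 and 39.7 CPM in 4-OHT libraries of day 7. At day 10 it was at 83.1, 65.0 and 70.0 CPM with EtOH and 171, 144 and 121 CPM with 4-OHT. No 4-OHT library reached an EtOH library at day 7, and at day 10 all 3 exceeded them. The shift was 1.43 ± 0.22 (adjusted p = 0.00031), from -0.43 ± 0.16 to 1.000 ± 0.16. *Gclc*, the catalytic subunit that makes glutathione's precursor, went from 157, 124 and 132 CPM with 4-OHT against 248, 239 and 205 CPM with EtOH to 347, 242 and 249 CPM against 229, 166 and 186 CPM. It too lay below all controls at day 7 and above all at day 10, with a shift of 1.27 ± 0.21. The shift of *Ugdh*, which makes UDP-glucuronate, was 0.73 ± 0.11, and that of *Gsta3*, a glutathione transferase, was 0.77 ± 0.09 (adjusted p = 9.5e-07).

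Several glutathione transferases were counted among the genes of higher response. *Gstm1* was at 878, 918 and 1006 CPM with EtOH and 552, 549 and 543 CPM with 4-OHT at day 7, and at 308, 419.8 and 409 CPM and 678, 540.1 and 479 CPM at day 10. The change between the days was not called in 4-OHT libraries (0.05), while the EtOH libraries dropped by 1.30 on the log2 scale. *Mgst2*, a microsomal transferase (chr3:51660360-51682677, plus strand), showed the converse, with 189, 216 and 182 and 199.97, 188 and 196 CPM in EtOH libraries at days 7 and 10, and 174, 152 and 156 and 347, 370.4 and 325 CPM in 4-OHT libraries. Its shift was 1.12 ± 0.11 (adjusted p = 7.7e-08), with EtOH libraries changing by -0.01. *Gsta2* shifted by 1.04 ± 0.11, *Gstm3* by 1.14 ± 0.24, *Gsto1* by 0.73 ± 0.10 and *Gsta1* by 0.68 ± 0.10, the last not called under scaling along length (0.52). Called changes thus lay in the EtOH arm for *Gstm1* and in the 4-OHT arm for *Mgst2* (1.11).

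Of the called genes in the list of drug and steroid metabolism, 5 encode cytochrome P450 enzymes, all called higher. P450 genes outside the list were called in both directions, *Cyp26b1* lower (-3.01 ± 0.56) among them. *Cyp2b10*, a target of the receptor CAR, was at 504, 454 and 459 CPM with EtOH and 249, 266 and 304 CPM with 4-OHT at day 7, then at 139.9, 170.1 and 137 CPM and 278, 255 and 178 CPM. It was called lower at day 7 (-0.79 ± 0.23) and higher at day 10 (0.67 ± 0.23), a shift of 1.46 ± 0.32 (adjusted p = 0.005). *Cyp1a1*, a target of the aryl hydrocarbon receptor, was at 1.92, 1.34 and 2.18 CPM and 1.67, 0.721 and 0.901 CPM at day 7 and at 2.52, 2.98 and 2.94 CPM and 6.61, 6.91 and 4.49 CPM at day 10, in each case EtOH first. Its groups overlapped at day 7 but not at day 10, and the shift was 1.81 ± 0.40. *Cyp2c29*, *Cyp2c66* and *Cyp3a11*, P450 enzymes of drug and steroid oxidation, shifted by 1.14 ± 0.21, 0.91 ± 0.13 and 0.82 ± 0.16. The EtOH means of all 3 fell between the days. *Cyp2c29* went from 576 to 169 CPM with EtOH and from 185 to 120 CPM with 4-OHT, and stayed below the controls. *Cyp2c66* went from 455 to 177 CPM and from 433 to 316 CPM, and *Cyp3a11* from 189 to 110 CPM and from 142 to 146 CPM, EtOH first. *Aldh1a1*, which makes retinoic acid, was at 797, 882 and 836 CPM with EtOH and 544, 493 and 442 CPM with 4-OHT at day 7. At day 10 the groups overlapped, at 806, 765 and 778 CPM and 933, 827 and 789 CPM, and the shift was 0.88 ± 0.12. *Adh1*, an alcohol dehydrogenase, was the 1 member of the list called lower (-0.70 ± 0.16). *Ugt2a3*, a glucuronosyltransferase outside the list, shifted by 0.86 ± 0.11 and was higher after 4-OHT at both days.

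**Figure D5:**
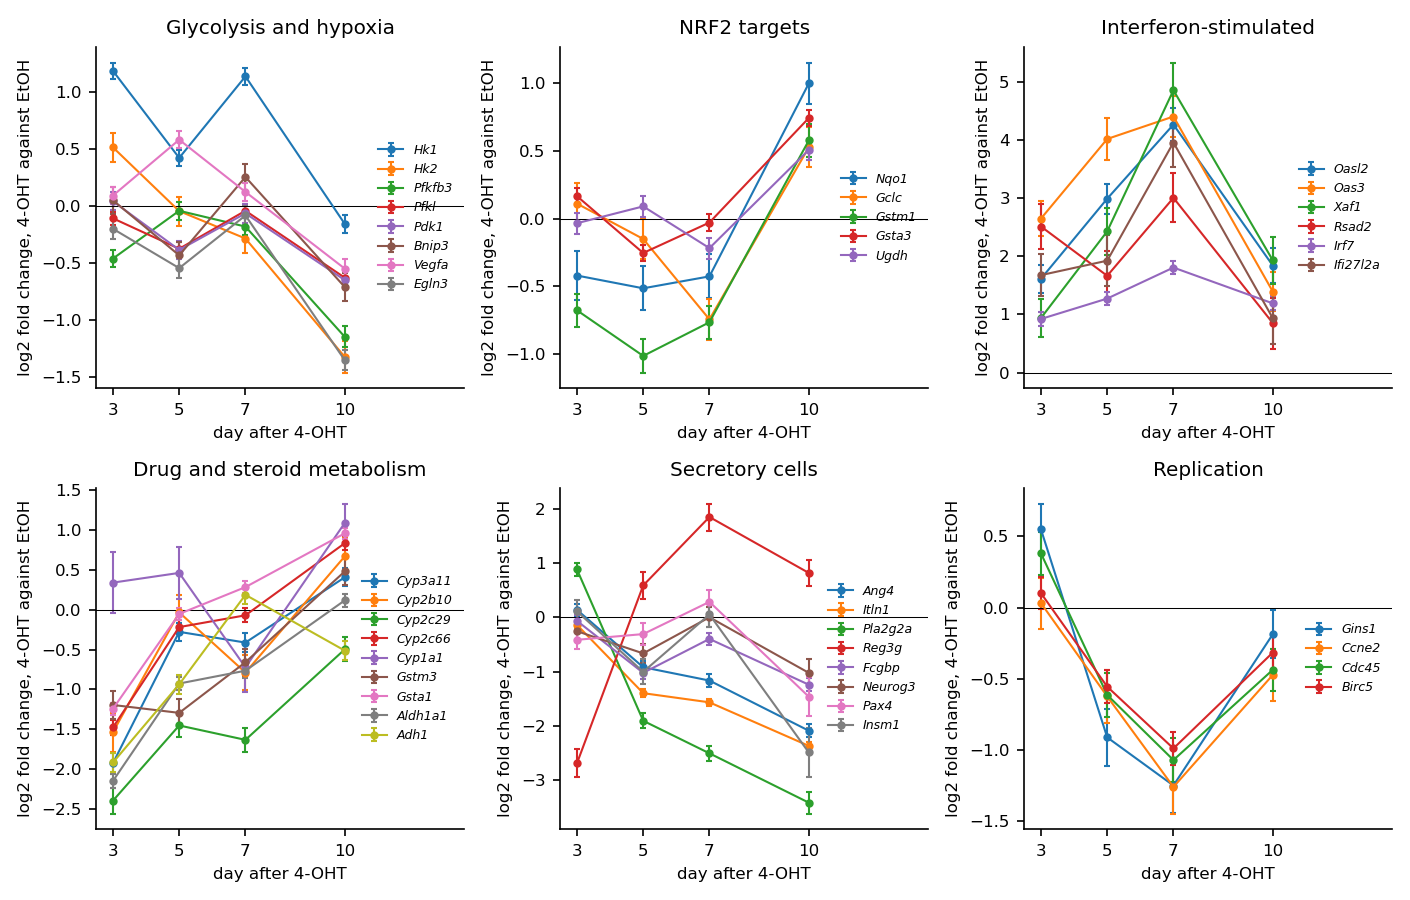
Response to 4-OHT (log2 fold change against EtOH, vertical axes; bars are SE) at days 3, 5, 7 and 10 (horizontal axes) for named genes of 6 groups. Glycolysis and hypoxia genes drop between days 7 and 10, NRF2 targets go from below to above 0, interferon-stimulated genes are highest at day 7, and replication genes are lowest at day 7.

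Many interferon-stimulated genes were above the controls at both days, and 3 had a smaller response at day 10. Of 18 genes tested, 12 were called higher at day 7 and 8 at day 10, beside 9% and 8.86% of all genes. The median response was 1.68 and 1.08. In the late shift 3 were called lower (*Oasl2*, *Rsad2* and *Irf7*) and 0 higher, beside 3.42% of all genes called lower. The median was -0.35, and at an unadjusted p under 0.05, 5 were lower and 0 higher. Without EtOH day 7 replicate 2, only *Oasl2* kept its call: *Rsad2* was lost without any one of EtOH day 7 replicates 1 and 2 or EtOH day 10 replicate 3 (-1.94 to -1.73), and *Irf7* without any one of EtOH day 7 replicate 2, 4-OHT day 7 replicate 2, EtOH day 10 replicate 3 or 4-OHT day 10 replicate 3 (-0.58 to -0.52). These genes encode antiviral effectors and, in the case of *Irf7*, a factor that amplifies interferon output.

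*Oasl2*, of the oligoadenylate synthetase family (chr5:114896936-114912234, plus strand), was at 1.87, 2.23 and 2.64 CPM in EtOH and 31.7, 52.5 and 45.6 CPM in 4-OHT libraries at day 7. At day 10 the values were 2.32, 2.68 and 2.59 CPM and 9.43, 9.39 and 8.41 CPM. The change of the EtOH libraries between the days was not called (0.17) and the 4-OHT libraries lay above them at both days, with a response of 4.27 ± 0.28 at day 7 and 1.84 ± 0.30 at day 10. The shift was -2.43 ± 0.44 (adjusted p = 0.00093). *Oas3*, which makes the 2-5A messenger, was at 0.101, 0.495 and 0.254 CPM against 4.53, 8.60 and 5.30 CPM at day 7 and at 0.436, 0.910 and 1.01 CPM against 2.45, 2.06 and 1.70 CPM at day 10, EtOH first, a shift of -3.01 ± 0.55. *Irf7* was at 19.97, 18.8 and 19.1 CPM and 63.0, 74.1 and 65.7 CPM, then at 13.9, 13.9 and 16.7 CPM and 34.6, 36.1 and 30.9 CPM, with a shift of -0.62 ± 0.17. For all 3 genes no 4-OHT library fell into the range of EtOH libraries at either day.

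Further genes of this kind were counted at lower levels. *Xaf1*, an interferon-induced gene, shifted by -2.93 ± 0.73, *Ifi27l2a* by -3.02 ± 0.67 and *Rsad2*, which encodes viperin, by -2.15 ± 0.64. *Rsad2* had 0.252, 0.247 and 0.609 CPM with EtOH and 2.05, 3.09 and 3.87 CPM with 4-OHT at day 7, and 0.484, 0.405 and 0.913 CPM and 0.906, 1.64 and 0.722 CPM at day 10, where the groups overlapped. *Tap1*, the peptide transporter of MHC class I loading, was the 1 of 9 MHC genes called (-0.77 ± 0.24), with its response at 1.37 and 0.60. Its call was lost without any one of EtOH day 7 replicate 3, 4-OHT day 7 replicate 2, EtOH day 10 replicates 2 and 3 or 4-OHT day 10 replicate 3 (-0.73 to -0.60), and without 4-OHT day 7 replicate 3, 2 MHC genes were called lower. Its partner *Tap2* did not pass the test (-0.64 ± 0.26, adjusted p = 0.089). In *Wnt3*-CM, described below, 3 of the 18 interferon-stimulated genes were called higher and 3 lower.

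Most Paneth cell genes were called lower than in the controls at both days, and the response of 4 was lower at day 10 than at day 7. In bulk RNA, fewer Paneth cells and less RNA per cell cannot be told apart, here and for every cell type below. Of 19 Paneth genes tested, 15 were called lower at day 7 and 15 at day 10, and 1 was called higher at each day (*Reg3g*), with median responses of -1.11 and -1.16. All genes were called lower in 9.25% and 6.92% of cases at these days. In the late shift 4 were called lower (*Ang4*, *Itln1*, *Pla2g2a* and *Reg3g*), beside 3.42% of all genes, and 0 higher, and the median was -0.23. Under scaling along length 5 were called lower, and without EtOH day 10 replicate 3 or 4-OHT day 10 replicate 1 it was 2. The summed level of the 20 marker genes was 5629 to 6769 CPM in EtOH and 2374 to 2589.6 CPM in 4-OHT libraries at day 7, and 8765 to 9101 CPM and 2515 to 2991 CPM at day 10.

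*Ang4*, an antimicrobial angiogenin (chr14:51763878-51773590, minus strand), was at 301, 207 and 292 CPM with EtOH and 117, 119 and 120.0 CPM with 4-OHT at day 7, and at 283, 291 and 298 CPM and 62.6, 78.9 and 63.4 CPM at day 10. The 4-OHT libraries were below all controls at both days. The response was -1.17 ± 0.12 and then -2.09 ± 0.12, a shift of -0.92 ± 0.17 (adjusted p = 0.00073). *Itln1*, an intelectin, went from 278, 285 and 297 CPM with 4-OHT against 911, 784 and 857 CPM with EtOH to 204, 214 and 184 CPM against 1092, 1018 and 1004 CPM, with no overlap at either day. Its shift was -0.80 ± 0.10 (adjusted p = 2e-06). The phospholipase *Pla2g2a* shifted by -0.91 ± 0.27, a call lost with limma-voom and without any one of EtOH day 10 replicate 3 or 4-OHT day 10 replicates 1 and 2 (-0.83 to -0.79).

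The difference between the days did not pass the test for *Lyz1*, *Mmp7* and *Wnt3*. *Lyz1*, lysozyme, had 3808, 3129 and 3546 CPM with EtOH and 1071, 1093 and 1229 CPM with 4-OHT at day 7, and 5704, 5875 and 5849 CPM and 1499, 1773 and 1623 CPM at day 10. Its shift was -0.20 ± 0.15 (adjusted p = 0.39), that of *Mmp7*, which processes defensins, -0.25 ± 0.13, and that of *Wnt3*, the Paneth cell ligand, 0.13 ± 0.19. *Wnt3* had responses of -1.58 and -1.45. *Reg3g*, an antimicrobial lectin that enterocytes express as well, had a positive response of 1.85 and then 0.82 (-1.03 ± 0.34, adjusted p = 0.048), and its call was lost with no filter on low counts, with the 12 libraries alone and without any one of EtOH day 7 replicates 1, 2 and 3, 4-OHT day 7 replicates 1 and 2, EtOH day 10 replicates 2 and 3 or 4-OHT day 10 replicates 1, 2 and 3 (-1.15 to -0.78).

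Most goblet genes had a negative late shift, though calls went in both directions. Of 15 goblet genes, 4 were called lower at day 7 and 8 at day 10, beside 9.25% and 6.92% of all genes. In the late shift 2 were called lower and 1 higher, beside 3.42% and 2.98% of all genes. Shifts were negative in 12 of the 15, with a median of -0.41, and under scaling along length 4 were called lower and 0 higher. Without EtOH day 7 replicate 3 or EtOH day 10 replicate 1, 4 were called lower, and without EtOH day 7 replicate 1, 4-OHT day 7 replicate 2 or EtOH day 10 replicate 2 it was 1. *Fcgbp*, a protein of the mucus layer, was at 1579, 1904 and 1828 CPM with EtOH and 1235, 1541 and 1250.3 CPM with 4-OHT at day 7, then at 2014, 1849.7 and 2089.8 CPM and 960.1, 769 and 788 CPM. The groups did not overlap at either day, and the shift was -0.84 ± 0.16 (adjusted p = 0.00093). *Bcas1* shifted by -0.71 ± 0.22, a call lost without any one of EtOH day 7 replicate 1, 4-OHT day 7 replicate 2, EtOH day 10 replicate 2 or 4-OHT day 10 replicate 1 (-0.68 to -0.57). *Muc2*, the main mucin, had a shift of -0.82 ± 0.30 that missed the threshold (adjusted p = 0.07). *Zg16*, a mucus lectin, was called higher (0.64 ± 0.17), but not under scaling along length (0.49) nor without EtOH day 7 replicate 1 or 4-OHT day 7 replicate 2 (0.55 to 0.57).

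Enteroendocrine genes passed the filter on low counts in 7 of 20 cases, and 3 of these were called lower, all of them transcription factors of endocrine progenitors. The median response of the 7 was 0.24 at day 7, with 0 called, and -1.02 at day 10, with 3 called lower. *Neurog3*, which commits cells to the endocrine fate (chr10:62133090-62134763, plus strand), was at 10.9, 12.5 and 14.7 CPM with EtOH and 13.1, 12.2 and 12.9 CPM with 4-OHT at day 7. At day 10 the values were 3.58, 5.06 and 5.94 CPM and 1.55, 2.95 and 2.63 CPM, so that overlap at day 7 gave way to separation. The shift of -1.02 ± 0.31 was not called without any one of EtOH day 7 replicate 1, EtOH day 10 replicates 2 and 3 or 4-OHT day 10 replicate 1 (-0.995 to -0.80). *Pax4* was at 3.08, 3.56 and 3.86 CPM and 5.07, 3.96 and 3.76 CPM at day 7, EtOH first, and at 0.872, 1.67 and 1.42 CPM and 0.426, 0.527 and 0.464 CPM at day 10, with a shift of -1.75 ± 0.41. *Insm1* had 2.22, 2.13 and 2.74 CPM and 2.70, 2.21 and 2.44 CPM, then 0.533, 0.961 and 1.27 CPM and 0.320, 0.0527 and 0.103 CPM, with a shift of -2.54 ± 0.51 (adjusted p = 0.00088). EtOH libraries also lost these transcripts between the days, by 1.39 for *Neurog3*, 1.41 for *Pax4* and 1.36 for *Insm1* on the log2 scale. The summed level of the 20 markers was 23.4 to 27.4 CPM with EtOH and 23.8 to 26.9 CPM with 4-OHT at day 7, and 12.8 to 15.3 CPM and 9.70 to 10.7 CPM at day 10.

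Among 15 secretory transcription factors and Notch ligands, 1 was called lower, the factor *Neurog3*, and 1 higher. The latter was *Dll1*, the Notch ligand of secretory progenitors, at 53.7, 48.9 and 43.0 CPM with EtOH and 42.4, 29.8 and 32.5 CPM with 4-OHT at day 7, and 38.9, 32.5 and 31.2 CPM and 56.7, 38.1 and 35.5 CPM at day 10. The 4-OHT libraries were below the controls at day 7 and overlapped with them at day 10, and the shift of 0.82 ± 0.21 was not called without 4-OHT day 10 replicate 1 (0.58). *Atoh1*, the master factor of the secretory lineage, had a response of -0.92 ± 0.08 at day 7 and -1.16 ± 0.08 at day 10. Its libraries held 31.7, 33.8 and 32.3 CPM with EtOH and 15.8, 18.4 and 17.5 CPM with 4-OHT at day 7, then 19.2, 19.2 and 18.1 CPM and 8.53, 8.65 and 8.15 CPM, and the shift of -0.24 ± 0.11 did not pass the test (adjusted p = 0.14). Its change between the days was called lower in both arms, at -0.79 in EtOH and -1.03 in 4-OHT libraries. None of the 9 tuft cell genes tested was called by edgeR, also at an unadjusted p under 0.05, while 8 were called lower at day 7 and 7 at day 10. The shift of *Pou2f3*, the tuft cell factor, was -0.12 ± 0.40, and *Dclk1* did not pass the filter on low counts.

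The smallest p of all belonged to *Rcor2*, a corepressor that partners the demethylase LSD1 (chr19:7267325-7275225, plus strand). It was at 107, 94.9 and 96.5 CPM with EtOH and 61.8, 64.4 and 63.1 CPM with 4-OHT at day 7, and at 54.8, 56.8 and 62.2 CPM and 14.1, 15.2 and 15.6 CPM at day 10. The 4-OHT libraries were below all controls at both days, the gap widening from -0.66 ± 0.07 to -1.95 ± 0.08. The shift was -1.30 ± 0.10 (adjusted p = 1.8e-09). *Palld*, an actin-binding protein, had a p of similar rank and belongs to no list. It went from above the controls at day 7 (0.49) to below them at day 10 (-0.69), a shift of -1.17 ± 0.12.

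Stem cell genes were called in both directions. Of 15 tested, 9 were called lower at day 7 and 10 at day 10, beside 9.25% and 6.92% of all genes. In the late shift 1 was called higher and 2 lower, beside 2.98% and 3.42% of all genes, around a median of 0.00. *Olfm4*, the abundant stem cell marker, was at 1575, 1340.2 and 1644 CPM with EtOH and 372, 437 and 622 CPM with 4-OHT at day 7, then at 2571, 2547 and 2347 CPM and 1149.7, 1344 and 1309.7 CPM. It remained below the controls, with its response at -1.67 and -0.97. The shift of 0.70 ± 0.23 was close to the threshold (adjusted p = 0.043) and its call was lost under scaling along length (0.62), with no filter on low counts, with upper quartile factors and without any one of EtOH day 7 replicates 1 and 3, 4-OHT day 7 replicates 1 and 2, EtOH day 10 replicates 1, 2 and 3 or 4-OHT day 10 replicates 2 and 3 (0.56 to 0.72). *Lgr5*, the R-spondin receptor, moved the other way: 127, 136 and 169 CPM with EtOH and 67.7, 88.0 and 105 CPM with 4-OHT at day 7, 160.4, 183 and 178 CPM and 60.5, 66.7 and 72.8 CPM at day 10, and a shift of -0.66 ± 0.19. That call was lost under scaling along length (-0.54), with the 12 libraries alone and without any one of EtOH day 7 replicates 1 and 2, 4-OHT day 7 replicates 2 and 3 or 4-OHT day 10 replicate 1 (-0.63 to -0.48). *Aqp4*, a water channel, shifted by -0.73 ± 0.17 and kept its call in every alternative run for it. *Ascl2* (0.32 ± 0.40) and *Msi1* (0.20 ± 0.20) did not pass the test.

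Of 19 Wnt ligands and feedback targets, 13 were called lower at day 7 and 14 at day 10, beside 9.25% and 6.92% of all genes. In the late shift 1 was called higher and 2 lower, beside 2.98% and 3.42% of all genes, with a median of 0.05. *Nkd1*, an inhibitor that Wnt signals induce, was at 2.37, 1.78 and 2.23 CPM with EtOH and 0.324, 0.412 and 0.265 CPM with 4-OHT at day 7, and at 1.84, 1.42 and 1.32 CPM and 1.01, 0.897 and 0.722 CPM at day 10. It was below the controls at both days with a smaller gap at day 10, and shifted by 1.85 ± 0.46 (adjusted p = 0.0057). *Ephb2*, which positions crypt cells, shifted by -0.68 ± 0.07 and fell under the fold threshold when libraries were scaled along length (-0.52). Of 7 Notch genes, *Jag2*, a ligand, was called lower (-0.60 ± 0.13), but not under that scaling (-0.55), with the filter of 10 counts in each library, with the 12 libraries alone or without any one of EtOH day 7 replicate 1, 4-OHT day 7 replicate 2, EtOH day 10 replicates 2 and 3 or 4-OHT day 10 replicate 1 (-0.57 to -0.53). *Hes1*, the Notch target that represses *Atoh1*, shifted by 0.15 ± 0.09 and did not pass the test.

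DNA replication genes had a negative response at day 7 that was smaller at day 10 for 4 of them. Of 20 genes of G1/S and replication, 18 were called lower at day 7 and 9 at day 10, beside 9.25% and 6.92% of all genes. Their median responses were -0.95 and -0.52, and 2.98% of all genes were called higher in the late shift. All 20 had a positive late shift with a median of 0.36, also when scaled along length (0.33), and 4 were called higher, among them *Gins1*, *Ccne2* and *Cdc45*. Without 4-OHT day 7 replicate 3, 11 of the 20 were called, and without any one of EtOH day 7 replicate 3, 4-OHT day 7 replicates 1 and 2, EtOH day 10 replicate 1 or 4-OHT day 10 replicates 2 and 3 it was 2. In 20 genes of G2/M and mitosis, 18 were called lower at day 7 and 7 at day 10, 16 shifts were positive, and 1 was called higher, 7 without 4-OHT day 7 replicate 3 and 0 without 4-OHT day 7 replicate 2. None of these was called lower with all libraries, and at most 1 was with 1 library left out.

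*Gins1*, a subunit of the replicative helicase, was at 5.19, 5.99 and 7.16 CPM and 1.89, 2.63 and 3.18 CPM at day 7, EtOH first, and at 7.99, 8.24 and 7.81 CPM and 6.45, 8.02 and 6.66 CPM at day 10, with overlap only at the later day, and shifted by 1.06 ± 0.26 (adjusted p = 0.0049). Cyclin E2 (*Ccne2*, 0.79 ± 0.26) and the helicase cofactor *Cdc45* (0.63 ± 0.21) lost their calls under scaling along length (0.72 and 0.57). *Ccne2* was also lost without any one of EtOH day 7 replicate 3, 4-OHT day 7 replicates 1 and 2, EtOH day 10 replicates 1 and 3 or 4-OHT day 10 replicates 2 and 3 (0.68 to 0.77), and *Cdc45* with upper quartile factors, with the 12 libraries alone and without any one of EtOH day 7 replicates 1 and 3, 4-OHT day 7 replicates 1 and 2, EtOH day 10 replicates 1 and 3 or 4-OHT day 10 replicates 2 and 3 (0.48 to 0.68). *Birc5*, survivin, shifted by 0.67 ± 0.16 and was not called without 4-OHT day 7 replicate 2 (0.57).

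Enterocyte genes were called in both directions. Of 22 tested, 3 were called higher and 2 lower, beside 2.98% and 3.42% of all genes. The median was 0.01, and under scaling along length 0 were called higher and 2 lower. In the day 10 response, 8 were called higher and 2 lower. Without EtOH day 7 replicate 1, 4-OHT day 7 replicate 2 or EtOH day 10 replicate 2 or 3, 1 was called higher. The fructose carrier *Slc2a5* shifted by 1.23 ± 0.38, a call lost under scaling along length (1.16), with no filter on low counts, with the 12 libraries alone and without any one of EtOH day 7 replicate 1, 4-OHT day 7 replicates 2 and 3, EtOH day 10 replicates 2 and 3 or 4-OHT day 10 replicates 1 and 2 (1.02 to 1.27).

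The enterocyte genes called lower take part in peptide handling. *Slc15a1*, the peptide carrier, was at 5.24, 6.13 and 6.75 CPM with EtOH and 12.5, 17.9 and 14.7 CPM with 4-OHT at day 7, and at 3.83, 7.89 and 7.10 CPM and 7.30, 6.70 and 7.43 CPM at day 10, where the groups overlapped. Its shift was -1.13 ± 0.28 (adjusted p = 0.006). *Anpep*, a brush border aminopeptidase, remained above the controls with a response of 1.63 and then 0.98, and shifted by -0.65 ± 0.12, a call lost without EtOH day 7 replicate 1 or 4-OHT day 7 replicate 2 (-0.58 to -0.56). Of 24 brush border and digestion genes, 3 were called higher and 2 lower, and without EtOH day 10 replicate 3 or 4-OHT day 10 replicate 1 it was 1 and 2. Beside *Slc2a5*, the higher ones were *Khk*, which phosphorylates fructose, with a shift of 0.74 ± 0.18 (0.60 when scaled) that was not lost in an alternative, and *Akp3*, an alkaline phosphatase of the intestine (2.58 ± 0.72), whose call was lost without EtOH day 10 replicate 3 or 4-OHT day 10 replicate 1 (1.89 to 2.37). In lipid uptake, 2 of 18 genes were called higher, and 0 under scaling along length. The fatty acid binder *Fabp2* went from a response of 0.72 to 1.44 (0.72 ± 0.12, 0.56 when scaled). The fatty acid carrier *Cd36* went from 2.41 to 3.07 (0.65 ± 0.22, 0.59 when scaled), and its call was lost under that scaling, with limma-voom, with the 12 libraries alone and without any one of EtOH day 7 replicate 1, 4-OHT day 7 replicates 2 and 3, EtOH day 10 replicates 1 and 3 or 4-OHT day 10 replicates 1, 2 and 3 (0.45 to 0.69).

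Of 9 genes of bile acid handling, 2 were called lower and 0 higher, beside 3.42% and 2.98% of all genes, with a median of -0.30. *Fgf15*, the hormone that the ileum sends to the liver (chr7:144896531-144900953, plus strand), was at 7.21, 8.66 and 9.60 CPM with EtOH and 8.74, 8.39 and 4.88 CPM with 4-OHT at day 7, and at 8.57, 6.02 and 8.02 CPM and 1.49, 2.11 and 1.44 CPM at day 10. It overlapped with the controls at day 7 and lay below all of them at day 10, a shift of -1.95 ± 0.41 (adjusted p = 0.0025). *Slc10a2*, the ileal bile acid carrier, was at 13.3, 14.5 and 14.6 CPM and 37.2, 55.2 and 53.3 CPM, then at 4.94, 6.98 and 6.95 CPM and 7.30, 8.70 and 10.5 CPM, EtOH first on both days. It was above the controls at both days, by 1.78 ± 0.14 and 0.50 ± 0.17, a shift of -1.29 ± 0.22.

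Calls among BMP and TGF-beta genes were for a lower response at day 10. Of 10 tested, 4 were called lower and 0 higher, also under scaling along length, beside 3.42% of all genes called lower, with a median of -0.48. Without any one of EtOH day 7 replicate 1, 4-OHT day 7 replicate 2, EtOH day 10 replicates 2 and 3 or 4-OHT day 10 replicate 1, 2 were called lower. *Tgfb1*, a ligand, was at 17.9, 17.2 and 15.3 CPM and 13.97, 16.3 and 17.4 CPM at day 7, EtOH first, and 13.9, 15.4 and 15.0 CPM and 9.17, 6.80 and 6.86 CPM at day 10. The day 7 groups overlapped and the day 10 groups did not, with a shift of -0.87 ± 0.19 (adjusted p = 0.0017). At an unadjusted p under 0.05, 4 genes were lower and 1 higher. *Bmp2*, another ligand, shifted by -1.04 ± 0.30, and its call was lost without any one of EtOH day 7 replicate 1, 4-OHT day 7 replicate 2, EtOH day 10 replicates 2 and 3 or 4-OHT day 10 replicate 1 (-0.98 to -0.89). *Smad6*, an inhibitory SMAD, shifted by -0.74 ± 0.26, and its call was lost with limma-voom, with no filter on low counts, with the 12 libraries alone and without any one of EtOH day 7 replicates 1 and 2, 4-OHT day 7 replicate 2, EtOH day 10 replicates 2 and 3 or 4-OHT day 10 replicates 1 and 3 (-0.74 to -0.62).

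Innate defence genes gave 3 calls, all lower, among 16 tested, beside 3.42% of all genes called lower, with a median of -0.44. Without EtOH day 10 replicate 1 it was 6 calls, and without EtOH day 10 replicate 3 it was 1. *Reg1*, a lectin of the Reg family, was at 1.56, 1.58 and 2.54 CPM with EtOH and 4.53, 3.35 and 2.17 CPM with 4-OHT at day 7, then at 7.31, 9.56 and 8.42 CPM and 2.56, 4.69 and 5.16 CPM. Its EtOH libraries rose by 2.15 on the log2 scale while the change of the 4-OHT libraries was not called (0.31), so the response went from 0.82 to -1.02, a shift of -1.84 ± 0.40. *Duox2*, a hydrogen peroxide source of the epithelium, shifted by -1.74 ± 0.46 and was not called without EtOH day 10 replicate 3 (-1.504). The third was *Reg3g*. Of 12 genes of the regenerative and fetal-like state, *Clu* was called higher and *Ly6a* and *Cldn4* lower. *Clu*, clusterin, was at 26.4, 28.5 and 38.03 CPM with EtOH and 5.07, 8.24 and 7.79 CPM with 4-OHT at day 7, and at 85.9, 66.9 and 60.2 CPM and 39.4, 45.4 and 37.97 CPM at day 10, always below the controls, with a shift of 1.34 ± 0.36. *Ly6a* shifted by -1.79 ± 0.49, a call lost without EtOH day 7 replicate 1 or 4-OHT day 7 replicate 2 (-1.63 to -1.60), and *Cldn4*, a claudin, by -0.95 ± 0.25.

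Single members were called in 4 more lists, beside 2.98% of all genes called higher and 3.42% called lower. *Nr4a1*, an orphan receptor among 20 immediate early genes, was at 6.05, 5.74 and 6.40 CPM with EtOH and 4.53, 6.18 and 6.57 CPM with 4-OHT at day 7, and at 3.05, 3.64 and 4.06 CPM and 1.39, 1.27 and 1.55 CPM at day 10, with a shift of -1.28 ± 0.31. It overlapped with the controls at day 7 and lay below them at day 10. Without 4-OHT day 7 replicate 1 or EtOH day 10 replicate 1, 3 immediate early genes were called lower, and without 4-OHT day 10 replicate 2 it was 2. Of 17 genes of the integrated stress response, *Cth*, which makes cysteine, shifted by 0.91 ± 0.15. Without 4-OHT day 7 replicate 1, 2 genes of that list were called higher and 1 lower, and without 4-OHT day 10 replicate 1 it was 1 and 1. Of 18 p53 targets, *Aen*, a nuclease, shifted by 0.64 ± 0.21, a call lost without any one of EtOH day 7 replicate 2, 4-OHT day 7 replicates 1 and 2, EtOH day 10 replicates 2 and 3 or 4-OHT day 10 replicates 2 and 3 (0.51 to 0.63). *Pdgfrb*, of 3 mesenchyme genes tested, shifted by -0.85 ± 0.26 at 2.89 to 7.77 CPM, and its counts in EtOH day 7 replicate 2 were 86, against 75 and 85 in replicates 1 and 3. That call was lost without any one of EtOH day 7 replicate 1, 4-OHT day 7 replicate 2, EtOH day 10 replicate 2 or 4-OHT day 10 replicate 3 (-0.79 to -0.68). The fibroblast collagens *Col1a1*, *Col1a2* and *Col3a1* were at 0 or 1 count in every day 10 library.

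In some lists edgeR called no gene at all. These were tuft cells (9 tested), immune cells (1), ER folding (20), sterol synthesis (21), fatty acid oxidation (18), cytosolic ribosomal proteins (20), mitochondrially encoded genes (10) and the Mediator kinase module (6). At an unadjusted p under 0.05 the numbers were 0 for tuft and immune cells, 7 for ER folding, 9 for sterol synthesis, 1 for fatty acid oxidation, 6 for ribosomal proteins, 3 for mitochondrially encoded genes and 4 for the kinase module. These numbers are not set against a share of all genes. Of all 15447 genes, 2590 passed an adjusted p under 0.05 at any fold. DESeq2 and limma-voom each called 1 ribosomal protein gene higher and no other member. Values were 0.52 ± 0.10 for *Selenos* of ER folding, -0.42 ± 0.08 for *Srebf2*, the regulator of sterol synthesis, and -0.46 ± 0.12 for *Med13*, a subunit of the kinase module. Without 4-OHT day 7 replicate 3, 3 genes of ER folding were called higher, without EtOH day 7 replicate 2 or 4-OHT day 10 replicate 1 it was 1, and without 4-OHT day 7 replicate 1 it was 1 mitochondrially encoded gene. A ribosomal protein gene was called without EtOH day 7 replicate 3 or 4-OHT day 7 replicate 1. Ribosomal protein genes had 17 of 20 shifts above 0 and a median of 0.13, against 10 of 20 and 0.00 when libraries were scaled along length.

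Among the largest negative shifts, *Alox12b*, a lipoxygenase of epithelial barriers (chr11:69156989-69169792, plus strand), was at 2.67, 3.36 and 2.69 CPM with EtOH and 6.85, 8.96 and 9.54 CPM with 4-OHT at day 7, then at 0.194, 0.405 and 0.761 CPM and 0, 0.105 and 0 CPM. The 3 day 10 libraries with 4-OHT held 2 counts in all, against 27 with EtOH, a ratio of 0.0780 (95% counting interval 0.00899 to 0.310), and 481 with 4-OHT at day 7. Its fitted shift was -5.00 ± 0.89 (adjusted p = 0.00037), a value that depends on those few counts. *Acacb*, a carboxylase that restrains fatty acid oxidation, was at 0.454, 0.0989 and 0.965 CPM and 5.82, 14.2 and 11.03 CPM at day 7, EtOH first, and at 0.242, 0.202 and 0.558 CPM and 0.213, 0.316 and 0.464 CPM at day 10, a shift of -4.35 ± 1.01 that was not called without EtOH day 10 replicate 3 (-3.79). *Cyp26b1*, a P450 enzyme which degrades retinoic acid, was at 20.3, 24.5 and 31.6 CPM with EtOH and 23.7, 32.9 and 29.5 CPM with 4-OHT at day 7, then at 2.13, 4.30 and 4.97 CPM and 0.480, 0.580 and 0.516 CPM. There the groups overlapped at day 7 and separated at day 10, with a shift of -3.01 ± 0.56.

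Further genes of this rank were *Gpr20*, an orphan receptor (-2.44 ± 0.46), *Plekho2* (-2.23 ± 0.35), *Rtn4r*, the Nogo receptor (-2.22 ± 0.58), and *AU021092* (-2.76 ± 0.70), the last not called without EtOH day 10 replicate 3 (-1.89). *Plekho2* was at 7.11, 5.89 and 4.57 CPM with EtOH and 9.87, 11.4 and 11.03 CPM with 4-OHT at day 7, and at 2.52, 2.73 and 2.03 CPM and 0.799, 1.002 and 1.03 CPM at day 10. It was above all controls at the first day and below all of them at the second.

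Among the largest positive shifts, *Cfhr2*, a complement factor H-related gene (chr1:139804167-139858702, minus strand), had the smallest p. It was at 4.44, 4.25 and 3.10 CPM with EtOH and 3.29, 2.37 and 1.91 CPM with 4-OHT at day 7, and at 3.68, 2.98 and 3.04 CPM and 13.7, 12.7 and 12.3 CPM at day 10. The 4-OHT libraries of day 10 stood apart from the other 9, with a shift of 2.63 ± 0.30 (adjusted p = 9.1e-07). *Sult6b2*, a sulfotransferase, was at 14.4, 13.2 and 9.44 CPM and 14.1, 12.9 and 14.4 CPM at day 7, EtOH first, and at 18.0, 11.5 and 11.97 CPM and 70.2, 56.8 and 51.5 CPM at day 10. It showed the same pattern, with overlap at day 7 and a shift of 1.94 ± 0.32. *Tpbgl* (2.23 ± 0.50), *Pik3r5*, a regulatory subunit of PI3K (2.18 ± 0.42), *Wipf1*, an actin regulator (2.08 ± 0.49), and *Adh7*, a retinol dehydrogenase (1.66 ± 0.46), kept their calls in the alternatives run for them. *Fcrlb* (2.70 ± 0.77) was not called without any one of EtOH day 7 replicates 1 and 2 or 4-OHT day 7 replicate 2 (2.36 to 2.504), and *Slc4a11* (1.93 ± 0.56) not without EtOH day 7 replicate 1 or 4-OHT day 7 replicate 1 (1.58 to 1.63). *Ptgds* (2.30 ± 0.74) and *Krtap3-1* (1.79 ± 0.58) lost their calls under scaling along length (2.14 and 1.64), with no filter on low counts and with the 12 libraries alone, and *Krtap3-1* also with limma-voom. The call of *Ptgds* was also lost without any one of EtOH day 7 replicate 1, 4-OHT day 7 replicates 1, 2 and 3, EtOH day 10 replicates 2 and 3 or 4-OHT day 10 replicates 1 and 2 (1.86 to 2.52), and that of *Krtap3-1* without any one of EtOH day 7 replicate 1, 4-OHT day 7 replicates 2 and 3, EtOH day 10 replicates 2 and 3 or 4-OHT day 10 replicates 1 and 3 (1.22 to 1.90).

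The same line was also grown for 10 days in *Wnt3*-CM, a conditioned medium that supplies Wnt3, in 6 libraries that the late shift does not use. There, 2319 of 13745 genes (16.9%) responded to 4-OHT, 9.45% higher and 7.42% lower. Of the 461 genes with a higher late response, 425 were tested in this medium, and 170 (40%) were called higher and 17 (4%) lower, with a median response of 0.42. Of the 529 with a lower late response, 511 were tested, 143 (28%) called lower and 54 (10.6%) higher, with a median of -0.25. The 170 shared genes are 13.1% of all genes called higher in *Wnt3*-CM, and the 143 are 14.0% of those called lower. The response in this medium was also measured at day 10. Over the bins of gene length its median rose from 0.004 in bin 1 to 0.07 in bin 2 and 0.09 in bins 3 and 4, and went down to -0.14 in bin 10. The day 10 response of the time course had a similar course. Its median was 0.08 in bin 1, 0.15 in bin 2, 0.17 in bin 3 and -0.15 in bin 10.

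By list, 20 of 25 genes of drug and steroid metabolism were called higher in *Wnt3*-CM and 0 lower, with responses of 2.94 for *Cyp2b10*, 2.09 for *Aldh1a1* and 2.63 for *Cyp3a11*. *Adh1*, lower in the late shift, had a response of 1.89 there. NRF2 targets gave 5 higher and 1 lower of 16, with 1.06 for *Nqo1*, and glycolysis and hypoxia genes 1 higher and 5 lower of 20, with -1.11 for *Hk2*, -0.73 for *Egln3* and -0.66 for *Pfkfb3*. *Hk1* was not called (-0.45), nor were *Pfkl* (0.00) and *Pdk1* (0.01). G1/S genes were 2 higher and 0 lower of 20, unlike the 9 lower in the day 10 response of the time course, though that difference was not tested. Endocrine factors were called lower, with -2.37 for *Insm1*, -1.73 for *Pax4* and -1.45 for *Neurog3*, and so was *Fgf15* (-4.19). The interferon-stimulated *Oasl2* (-0.27) and *Irf7* (0.10) were not called in *Wnt3*-CM.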

How the data were processed

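Libraries were made from poly-A RNA and read from both ends over 100 bp. The authors deposited raw counts of reads per gene, without normalization or filter. The submitters' processing notes name STAR 2.5.2, featureCounts, Subread 1.6.3 and mm10. Whether counting used strand is not given in the sources used here, so reads of overlapping or antisense genes cannot be told apart. Of 54752 identifiers, 53861 are in GENCODE vM21 (GRCm38), the source of positions and exon lengths. In the time-course table, all 24 libraries (8 groups) were fitted with edgeR 4.0.16 in R 4.3.3, with filterByExpr, TMM factors and robust quasi-likelihood F tests. The late shift was a contrast within this fit. Genes were called at a Benjamini-Hochberg adjusted p under 0.05 over all genes and a fold over 1.5, and the SE is the log2 value divided by the root of F. Depth was alike over the 12 libraries (19110500 to 20771513 counts), and values of genes with few reads are limited by counting error. *Wnt3*-CM libraries were fitted by themselves, since their columns are tied to groups only. Some genes that passed the rules below are not reported here. A further 12 columns of other samples and 2 tables were not used.

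Named genes were, among called genes with a mean of at least 50 counts in the highest group, the 12 largest shifts and 6 smallest p-values in each direction without predicted genes, called members of the lists (or the 2 smallest p-values where fewer than 2 were called), and 13 genes of the study's text, of which 12 were tested. Members and lists were chosen with earlier results of these data known. Alternatives were no filter, upper quartile factors, a minimum of 10 counts in all libraries, limma-voom (limma 3.58.1), DESeq2 1.42.0, only the 12 libraries, a replicate block, leaving out each library, and, chosen after seeing the data, scaling along exon length. A replicate block was an alternative because the groups share replicate numbers. Equal replicate numbers did not pair the samples: the correlations of same-numbered libraries after removing group means were 0.00179 to 0.232, not all over 0.1. The labels do not say that replicates were separate cultures, so p-values measure the spread between these samples, which may be technical. Replicates differed beyond sampling noise in every pair. The fit was tested on simulated data.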

Additional observations from a re-analysis of the deposited data

Results flagged for a closer look

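The late shift is itself the test of whether the 4-OHT response differed between day 7 and day 10, so genes called in it passed a test of a difference between groups. These were 990 genes, 461 with a higher and 529 with a lower response at day 10. Of these, 34 were called at both days in opposite directions, and 5 of them are named in the comparisons above. *Alox12b* had a shift of -5.00 on the log2 scale, *Plekho2* of -2.23 and *Reg1* of -1.84, each called higher at day 7 and lower at day 10. *Cfhr2* had a shift of 2.63 and *Cyp2b10* of 1.46, both called lower at day 7 and higher at day 10. Groups of 3 libraries were not tested for a single library that stands apart from the others.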

How the results depend on the processing

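The number of genes called in the late shift was 905 to 1045 under the other filters, upper quartile factors, limma-voom, DESeq2 and a fit of the 12 libraries alone. Scaling along exon length, added after seeing the data, gave 845. With the replicate block it was 1130 (543 higher and 587 lower), and the block changed the call of 2 of the 99 named genes that were called, *Pfkl* and *Pdk1*. Without 1 library the count ranged from 716 (without 4-OHT day 7 replicate 2) to 1215 (without 4-OHT day 7 replicate 3), where 699 were higher, 57.5% of the calls. Without EtOH day 7 replicate 2, the library with fibroblast transcripts, it was 1024, 531 higher and 493 lower, and 841 of these were called in the same direction with it. The response at day 7 gave 2494 to 3085 calls without 1 library and 2828 with the block, and that at day 10 gave 2261 to 2533 and 2465. Changes between the days gave 3272 to 3886 calls in EtOH (3641 with the block) and 5268 to 5722 in 4-OHT libraries (5653 with the block). For *Wnt3*-CM the range was 2164 to 2521. No paired analysis was possible for *Wnt3*-CM because its columns carry no replicate number tied to the labels. Of the 99 called genes that the text names, DESeq2 kept 99, limma-voom 93, the length scaling 83, and omissions of 1 library between 74 and 95. The shift of *Pou2f3*, not called, ranged from -0.34 to 0.077 without 1 library. Genes counted at a few CPM rest on few reads, and 4-OHT day 10 values of *Alox12b* and *Insm1* are limited by counting error. The cause of the dependence on single libraries was not tested.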

Other observations

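Genes in this section were chosen after their values were seen. Calls among nuclear genes of the respiratory chain and of ATP synthase were all for a higher response at day 10. Of 93 subunits tested, 18 were called higher and 0 lower, beside 2.98% of all genes called higher. A positive late shift was seen in 91, and the median was 0.40, with median responses of -0.03 at day 7 and 0.41 at day 10. Of 77 subunits of the mitochondrial ribosome, 76 had a positive shift, with 10 called higher, 0 lower and a median of 0.40, from a median response of -0.28 to 0.11. Both families are made of short genes, with median exon lengths of 1756 bp and 2533 bp. When libraries were scaled along length, 87 of 93 and 75 of 77 shifts were positive, with medians of 0.30 and 0.35, and 7 and 5 genes were called higher.

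A few of the 34 genes called at both days in opposite directions are given here as examples. The set held genes of other kinds as well, among them *Otog*, *C1ra* and *Mmp28*, and no theme was tested. *Adora1*, an adenosine receptor, was at 32.5, 30.3 and 30.7 CPM with EtOH and 67.7, 89.5 and 78.1 CPM with 4-OHT at day 7, and at 18.1, 22.1 and 25.1 CPM and 9.43, 12.8 and 14.8 CPM at day 10. It exceeded all controls at the first day and lay below all of them at the second, with a shift of -2.15 ± 0.22 (adjusted p = 2.4e-06). *Grin1*, an NMDA receptor subunit, shifted by -2.18 ± 0.37, *Bst1*, an ADP-ribosyl cyclase, by -2.19 ± 0.31, and *Camk2n1*, an inhibitor of CaMKII, by -1.68 ± 0.26. *Hif3a*, a HIF subunit that HIF-1 induces, was at 10.7, 12.7 and 12.4 CPM with EtOH and 14.7, 19.7 and 22.1 CPM with 4-OHT at day 7, then at 3.39, 3.03 and 3.55 CPM and 1.17, 2.22 and 1.65 CPM, with responses of 0.66 and -0.98 and a shift of -1.64 ± 0.29. In the reverse direction, *Ugt2b5*, a glucuronosyltransferase, was at 48.5, 48.7 and 41.5 CPM with EtOH and 37.0, 27.8 and 24.1 CPM with 4-OHT at day 7, and at 54.7, 46.6 and 48.0 CPM and 109, 80.0 and 77.3 CPM at day 10, a shift of 1.47 ± 0.23. *Coq8a*, a kinase-like protein of coenzyme Q synthesis, shifted by 1.38 ± 0.27.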
